A study of Mus musculus with 13 samples.

Results

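Expression of 10 genes linked to 2 sensors of chemical stress was followed in primary mouse keratinocytes infected with a retrovirus for ERDNp63a, in which DNp63alpha, a form of the epidermal transcription factor p63, is joined to a domain of the estrogen receptor. The genes were the NRF2 targets Hmox1, Nqo1, Gclc, Gclm, Txnrd1 and Srxn1, the aryl hydrocarbon receptor gene Ahr, and the receptor's targets Cyp1a1, Cyp1b1 and Tiparp. The 10 genes were chosen by name, out of 12394 on the array, and read by every probe set annotated to only one of them, which gave 21 of 20393 probe sets named to 1 gene. There were 12 arrays of tamoxifen-treated cells, at steps of 20 min up to 240 min, and 1 array of untreated cells. That array is untreated by its title, while its description repeats the general text on induction with tamoxifen; the title was followed, and each value set against untreated cells rests on it. All of these cells carried the fusion, and no time had a replicate. Arrays of cells without the fusion or without tamoxifen over the same hours were not analysed here, so effects of the fusion, of tamoxifen itself and of elapsed time cannot be told apart.

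NRF2 is a transcription factor that the adaptor protein KEAP1 marks for degradation until oxidants or electrophiles modify KEAP1. NRF2 then pairs with small MAF proteins on antioxidant response elements and drives genes of glutathione and thioredoxin metabolism, quinone reduction and haem breakdown. The aryl hydrocarbon receptor (AHR) is a ligand-activated factor that pairs with ARNT on xenobiotic response elements and induces cytochrome P450 enzymes of the CYP1 family, and in skin it responds to environmental pollutants and to light-derived tryptophan products.

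Values are the deposited array intensities, and differences are on the scale of log2(intensity + 16), which understates changes of dim genes. The median intensity of an array was at least 237.4 and at most 251.5 units. The basal keratinocyte keratin Krt5 read at least 14560 units in every array, at percentile 99.9 of mean level. Of the 18 keratinocyte markers 17 were found, and Krt15 alone among them was below the 40th percentile of mean level. Melanocyte markers were also present: 7 of the 8 found were above that percentile, Dct at percentile 93.9. The ratio of the 3′ to the 5′ Gapdh control probe set lay between 0.899 and 0.937 from 80 to 240 min, between 0.907 and 0.930 from 20 to 60 min, and at 0.908 in untreated cells, with overlap between the windows compared here. The same ratio for actin was 1.263 and 1.271 at 80 and 100 min and between 1.172 and 1.218 from 120 to 240 min, against 1.16 to 1.212 from 20 to 60 min and 1.195 in untreated cells. It was thus highest in the 2 arrays that follow 60 min, and its part in the results below was not tested.

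The 4 genes of the AHR group and 2 NRF2 targets, Hmox1 and Txnrd1, fell along the 4 h on their probe set with the highest mean, while Nqo1, Gclc, Gclm and Srxn1 did not pass that test. The straight line was fitted with limma and p-values were adjusted by the Benjamini-Hochberg method over 20393 probe sets with a threshold of 0.05. Over all probe sets of the 10 genes, 9 of 21 fell and 0 rose along the line, beside 22.4% called in either direction, 12.2% higher and 10.2% lower among all probe sets tested. Several of the 21 read the same gene and are not separate measurements, and the 10 genes were chosen with earlier results of these data known. With each gene read on its probe set with the highest mean, 6 of 10 fell, beside 23.8% called and 10.8% lower among all genes. The median slope of the 21 was -0.050 per hour, against -0.0009 per hour over all probe sets. The arrays from 80 to 240 min (9 arrays, later hours) were then set against those from 20 to 60 min (3 arrays, first hour), windows that were taken from an earlier look at these data. In this contrast 8 of 21 fell and 1 rose, beside 20.1% called, 9.98% lower and 10.1% higher among all probe sets, and the median difference was -0.17 against -0.0021. By gene, 5 of 10 fell and 0 rose, beside 21.6% called and 10.7% lower among all genes. For 6 of the 21 all 9 later arrays lay below all 4 arrays up to 60 min, a pattern of 6.73% of all probe sets, and for 1 they lay above, a pattern of 7.18%. Neighbouring times stand in for replicates in these fits, so p-values measure only the scatter between these arrays. Without the 40 min array 5 of the 21 fell and 0 rose in the later hours against the first hour. Over all 20393 probe sets, 1045 fell and 1144 rose without that array.

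**Figure D1:**
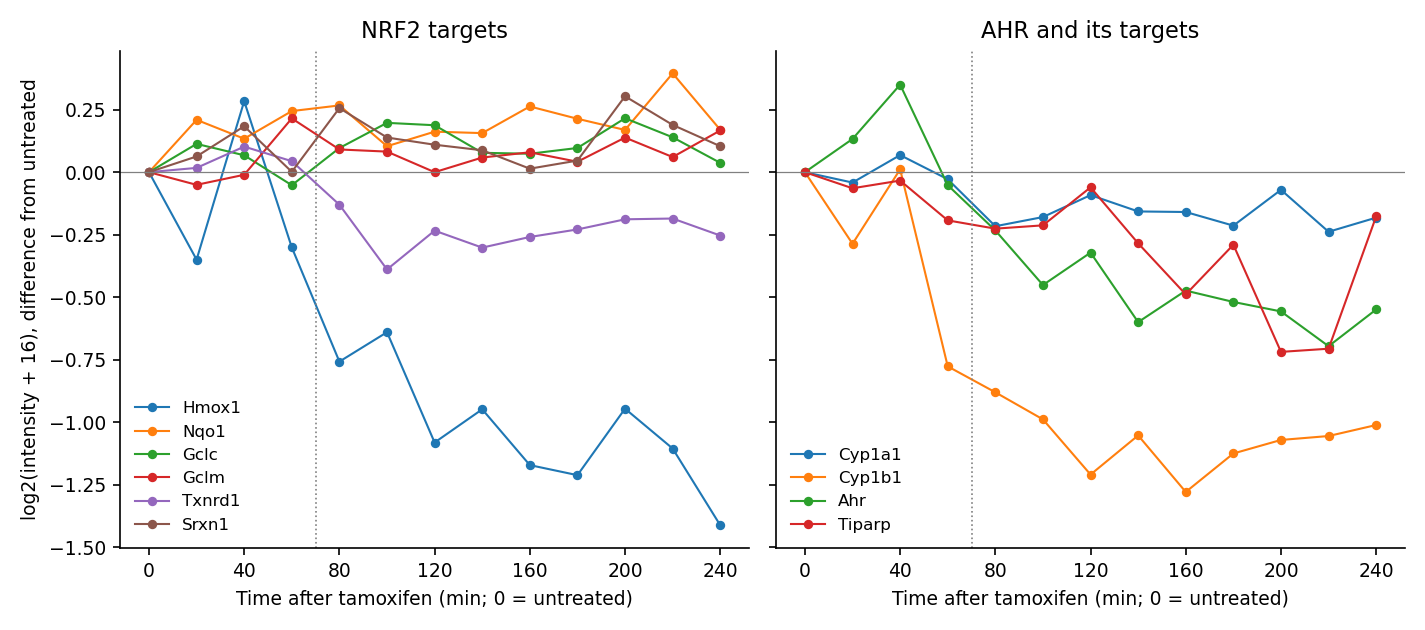
Level of each gene on its probe set with the highest mean, as log2(intensity + 16) minus the untreated value, against time after tamoxifen, with 1 array per point; the dotted line stands between 60 and 80 min. Hmox1 and Cyp1b1 drop furthest and stay low, Ahr and Txnrd1 stay lower from 80 min, Tiparp is lowest at 200 and 220 min, and Nqo1, Gclc, Gclm and Srxn1 each span at most 0.40.

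The first hour was also set against the untreated array. None of the 21 probe sets passed in limma, with 0 at an unadjusted p under 0.05 and an adjusted p of 1 throughout, beside 0.0049% called among all probe sets. The untreated array was alone in its window and was assumed to vary like the others, so the intervals were wide. For Hmox1 the difference was -0.12 with a 95% interval from -0.66 to 0.42, and for Cyp1b1 it was -0.35 with an interval from -0.79 to 0.08.

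Hmox1 encodes haem oxygenase 1, which breaks haem down to biliverdin, iron and carbon monoxide. It read between 665.2 and 1147 units from 80 to 240 min, with a median of 840.7, against 1406, 2190 and 1455 units at 20, 40 and 60 min and 1796 units in untreated cells. Every later array was therefore below every array up to 60 min, and the highest value, at 40 min, lay between 2 lower neighbours. The largest drop between neighbouring arrays, 0.58 on the log2 scale, came between 40 and 60 min. The later hours averaged 882.1 ± 149.0 units and the first hour 1684 ± 439.2 units (SD over 9 and 3 arrays), a 1.88-fold fall (-0.91 ± 0.147 on the log2 scale, SE; limma adjusted p = 0.000469). Without the 40 min array the difference was -0.71 (adjusted p = 0.00649). The lowest value was that of the last array, 665.2 units at 240 min, 2.66-fold below the untreated array on the log2(intensity + 16) scale. Along the straight line Hmox1 fell 2.62-fold over 4 h (adjusted p = 0.000231), and the spline of time with 3 degrees of freedom also passed (adjusted p = 0.00169).

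Txnrd1 encodes cytosolic thioredoxin reductase, which keeps thioredoxin reduced. Its probe set with the highest mean, 1421529_a_at, read between 1587 and 1902 units from 80 to 240 min, with a median of 1769, against 2108, 2237 and 2148 units at 20, 40 and 60 min and 2083 units in untreated cells. The groups did not overlap, and the lowest value was at 100 min. The fall of the later hours against the first hour was 1.23-fold (-0.30 ± 0.0484, SE; limma adjusted p = 0.000534). The probe sets 1424486_a_at and 1424487_x_at fell 1.28-fold and 1.27-fold (limma adjusted p = 0.0113 and 0.0119), with arrays of the windows overlapping. The suffix _x marks probes that can bind similar sequences of other genes. The calls of these other probe sets were lost without the 40 min array (limma adjusted p = 0.0963 and 0.115), and that of 1424486_a_at also without the 60 min array (0.053). Along the straight line only 1421529_a_at of the 3 passed (limma adjusted p = 0.0271), and this was lost without the untreated, the 20 min or the 40 min array. Without the 200 and 220 min arrays the slopes of 1424486_a_at and 1424487_x_at passed too (-0.14 and -0.13 per hour, against -0.08 and -0.09 with all arrays; limma adjusted p = 0.0237 and 0.0251), and that of 1424487_x_at also passed without the 100 or the 200 min array (0.0292 and 0.0461).

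Gclc and Gclm encode the catalytic and the modifier subunit of glutamate-cysteine ligase, the rate-limiting enzyme of glutathione synthesis. Gclc was read by 2 probe sets. On 1424296_at it read between 806.9 and 1014 units from 80 to 240 min, with a median of 868.6, against 767.1, 787.0 and 766.1 units at 20, 40 and 60 min and 772.8 units in untreated cells. All later arrays lay above all arrays up to 60 min, and this was the one rise among the 21 probe sets (1.15-fold, 0.21 ± 0.0655, SE; limma adjusted p = 0.0374). This rise missed the threshold without any one of the arrays at 20, 40, 60, 80 and 220 min (limma adjusted p between 0.053 and 0.113) and with 80 to 140 min as the later window (0.0898), and its slope along the line did not pass (0.101). On 1455959_s_at, the Gclc probe set with the higher mean, the windows overlapped and the difference was 0.08, with a 95% interval from -0.03 to 0.19 (limma adjusted p = 0.307). Gclm read between 331.9 and 374.5 units from 80 to 240 min, against 319.9, 329.4 and 387.8 units at 20, 40 and 60 min and 331.9 units in untreated cells. All later arrays lay within the range of the first hour, with a difference of 0.03 and a 95% interval from -0.09 to 0.15 (limma adjusted p = 0.787).

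Nqo1 encodes a quinone reductase that is a standard readout of NRF2 activity. It read between 203.0 and 252.0 units from 80 to 240 min, with a median of 213.2, against 219.6, 207.6 and 225.4 units at 20, 40 and 60 min. The untreated array, at 187.8 units, was the lowest of all 13. The later hours and the first hour overlapped (difference 0.02, 95% interval from -0.10 to 0.13; limma adjusted p = 0.894), and the slope did not pass either (0.25).

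Srxn1 encodes sulfiredoxin, which restores overoxidised peroxiredoxins. Of its 4 probe sets none passed any of the tests, and all of them overlapped between windows. On the probe set with the highest mean, 1426875_s_at, it read between 615.2 and 755.4 units from 80 to 240 min, with a median of 658.5, against 636.9, 693.9 and 609.7 units at 20, 40 and 60 min and 609.1 units in untreated cells. The differences of the later hours from the first hour were 0.06, -0.07, 0.07 and -0.03 for 1426875_s_at, 1425351_at, 1451680_at and 1419942_at, and the 4 intervals together ran from -0.19 to 0.21 (limma adjusted p between 0.478 and 0.753). The 2 probe sets 1425351_at and 1451680_at were designed on the same sequence accession and differed in sign.

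Proximal promoter sequence was examined for short elements of the kind that these factors bind. RefSeq windows of GRCm38.p6, from 250 bases before to 50 after a transcription start, were given for 7 of the 10 genes. They were searched on both strands for the antioxidant response element core TGACNNNGC, the related element TGANTCAGC, which overlaps the former where its N is C, and the xenobiotic response element core GCGTG. The window of Srxn1, whose level did not pass a test, and those of Cyp1b1 and Tiparp, which fell along the line, are shown as examples of each kind. Capitals mark matches to any of these motifs on either strand.
Srxn1: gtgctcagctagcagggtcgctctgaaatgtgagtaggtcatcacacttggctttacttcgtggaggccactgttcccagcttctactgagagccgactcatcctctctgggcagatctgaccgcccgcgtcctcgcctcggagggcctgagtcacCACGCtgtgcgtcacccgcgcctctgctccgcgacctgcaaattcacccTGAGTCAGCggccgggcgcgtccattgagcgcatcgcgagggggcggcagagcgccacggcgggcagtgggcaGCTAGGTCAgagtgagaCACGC
Cyp1b1: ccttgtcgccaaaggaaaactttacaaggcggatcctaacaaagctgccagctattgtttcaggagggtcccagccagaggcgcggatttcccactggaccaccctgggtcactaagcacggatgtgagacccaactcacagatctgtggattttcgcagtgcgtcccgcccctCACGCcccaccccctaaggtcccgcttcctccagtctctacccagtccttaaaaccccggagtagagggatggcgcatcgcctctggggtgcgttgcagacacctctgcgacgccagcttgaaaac
Tiparp: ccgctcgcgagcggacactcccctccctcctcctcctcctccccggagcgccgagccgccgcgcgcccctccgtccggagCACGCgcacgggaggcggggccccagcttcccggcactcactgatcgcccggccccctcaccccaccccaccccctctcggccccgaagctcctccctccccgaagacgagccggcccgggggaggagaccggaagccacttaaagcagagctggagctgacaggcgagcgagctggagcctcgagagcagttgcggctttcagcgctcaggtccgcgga
These lie at chr2:152105274-152105573 on the plus strand, chr17:79715012-79715311 on the minus strand and chr3:65528197-65528496 on the plus strand. TGANTCAGC was found in Srxn1 alone of the 7 genes, 45 bases before its start, and in 1.37% of 27025 genes with a window. TGACNNNGC was found in Gclm, Txnrd1 and Srxn1, and in 14% of all genes. GCGTG was found in 6 of the 7 genes, Nqo1 being the exception, and in 35.2% of all genes. A match is a run of letters and not a bound site, and elements outside these windows were not searched.

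Ahr encodes the receptor itself. On 1422631_at it read between 513.0 and 713.1 units from 80 to 240 min, with a median of 582.0, against 923.4, 1076 and 810.5 units at 20, 40 and 60 min and 840.8 units in untreated cells. The later arrays were all below the earlier ones, and the course had its highest point at 40 min and its lowest at 220 min. Its largest drop between neighbouring arrays, 0.40 on the log2 scale, came between 40 and 60 min. The later hours averaged 597.2 ± 61.4 units and the first hour 936.7 ± 133.4 units (SD over 9 and 3 arrays), a 1.55-fold fall (-0.63 ± 0.0914, SE; limma adjusted p = 0.000197). The line (adjusted p = 0.000347) and the spline (0.00216) passed as well. The second probe set, 1450695_at, designed on the same accession, read between 191.4 and 216.6 units from 80 to 240 min, against 214.0, 233.1 and 226.1 units at 20, 40 and 60 min. Its difference of -0.12 had a limma adjusted p of 0.0833.

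Cyp1b1 encodes a cytochrome P450 that oxidises polycyclic hydrocarbons and estrogens. On 1416612_at it read between 332.4 and 443.2 units from 80 to 240 min, with a median of 390.8, against 677.0, 835.8 and 477.4 units at 20, 40 and 60 min and 829.1 units in untreated cells. The later arrays lay below all earlier ones, but the largest step between neighbouring arrays came before 80 min, a drop of 0.79 on the log2 scale between 40 and 60 min. The later hours averaged 386.6 ± 32.8 units and the first hour 663.4 ± 179.6 units (SD over 9 and 3 arrays), a 1.65-fold fall (-0.72 ± 0.118, SE; limma adjusted p = 0.000508). At 240 min, Cyp1b1 was 2.02-fold below the untreated array. The probe set 1416613_at, of the same accession, fell 1.48-fold (limma adjusted p = 0.000178), and its windows did not overlap either. The third probe set, 1432081_at, designed on another accession, read between 97.3 and 114.3 units in all arrays and did not pass (adjusted p = 0.761). Its mean was at percentile 14.9 of all probe sets. The spline had its smallest adjusted p among the 21 probe sets at 1416613_at (0.000437), followed by 1416612_at (0.000459).

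Cyp1a1 encodes the P450 enzyme most used as a readout of AHR activity. It was dim throughout, at percentile 20.3 of mean level, and the lower quartile of the arrays lay between 121.3 and 130.7 units. It read between 106.5 and 121.6 units from 80 to 240 min, against 124.4, 135.5 and 125.7 units at 20, 40 and 60 min and 128.5 units in untreated cells. The later arrays were all below the earlier ones, by 1.12-fold (-0.17 ± 0.0398, SE; limma adjusted p = 0.00759). The call was lost without the 40 min array (difference -0.13, adjusted p = 0.0728). Its slope along the line passed (limma adjusted p = 0.0291), but not without any one of the arrays of untreated cells, 20, 40, 180 or 220 min (0.0531 to 0.0899). The files give no detection call, so how much of this signal is Cyp1a1 transcript and how much background was not tested.

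**Figure D2:**
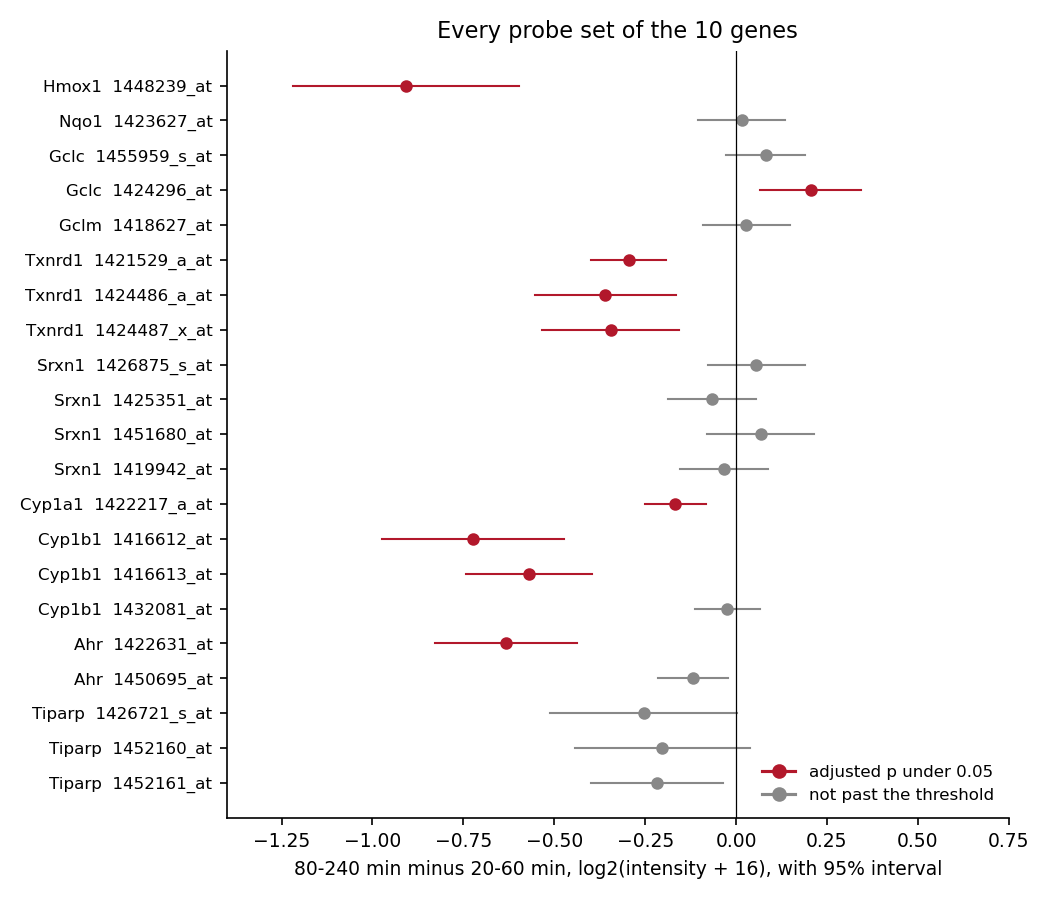
Difference of the later hours (80 to 240 min, 9 arrays) from the first hour (20 to 60 min, 3 arrays) for each of the 21 probe sets, on the log2(intensity + 16) scale, with 95% intervals from limma; red marks an adjusted p under 0.05. Hmox1, Cyp1b1, Ahr and Txnrd1 lie left of 0, Gclc is the one red point to the right, and the 4 Srxn1 probe sets straddle 0.

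Tiparp encodes a mono-ADP-ribosyltransferase that AHR induces and that represses AHR in turn. Its 3 probe sets were designed on the same accession and correlated at 0.909 to 0.968 over the 13 arrays, so they count as 1 measurement. On 1426721_s_at it read 1027 units in untreated cells, 981.5, 1003 and 896.6 at 20, 40 and 60 min, and then 875.9, 884.1, 984.1, 840.4, 727.3, 837.0, 617.9, 623.5 and 906.9 at 80 to 240 min. The 200 and 220 min arrays were the lowest of the course, and the 240 min array was back among the values of 60 to 180 min. The slope passed in all 3 probe sets (a 1.44-fold fall over 4 h on 1426721_s_at, limma adjusted p = 0.0111). Without the 200 and 220 min arrays none of the 3 passed (limma adjusted p = 0.0905, 0.153 and 0.126). With single arrays left out, the slope of 1426721_s_at kept its call throughout, that of 1452160_at missed without the untreated, 20 or 220 min array, and that of 1452161_at without the untreated or 220 min array. The spline passed in none of the 3 over all arrays and in all 3 without the 240 min array (limma adjusted p = 0.00131, 0.00168 and 0.0119). The later hours did not pass against the first hour on any of the 3. On 1426721_s_at the difference was -0.25 with a 95% interval from -0.51 to 0.0014, and on 1452160_at it was -0.20 with an interval from -0.44 to 0.04 (limma adjusted p = 0.161 and 0.245). On 1452161_at it was -0.22 with an interval from -0.40 to -0.04 (limma adjusted p = 0.0898), and it passed with the untreated array joined to the first hour (-0.25, 0.0219) and without the 120 min array (-0.24, 0.0438).

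**Figure D3:**
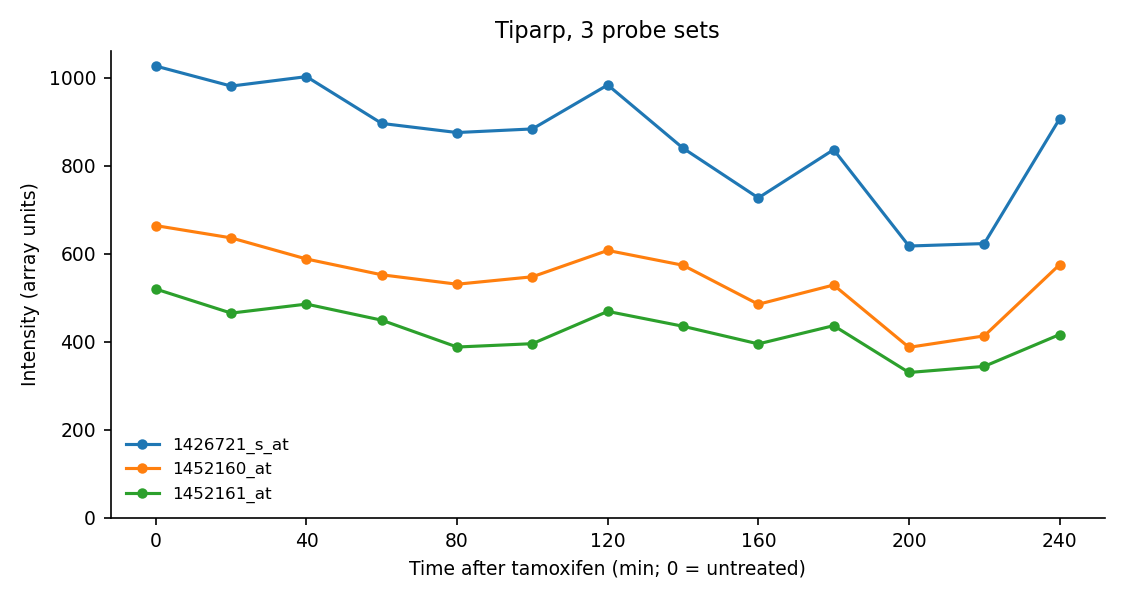
Intensity of Tiparp on its 3 probe sets against time after tamoxifen, with 1 array per point and an axis from 0. All 3 are lowest at 200 and 220 min, where 1426721_s_at reads 617.9 and 623.5 units, and are higher again at 240 min.

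Low values at 200 and 220 min were not general. Both arrays lay below both of their neighbours, 180 and 240 min, for 14.4% of all probe sets and above both for 40%. Among the 21, the 3 Tiparp probe sets and Ahr 1422631_at were below both neighbours, and 11 were above, including Hmox1, both Gclc, all 3 Txnrd1 and all 4 Srxn1 probe sets. Tiparp differed from its neighbours by -0.48 on 1426721_s_at, Ahr by -0.09 and Hmox1 by 0.29. With 2 arrays on each side these are given as values with no test.

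Changes after 80 min were asked for in the 9 later arrays alone. None of the 21 probe sets had a slope past the threshold there, with 2 at an unadjusted p under 0.05, beside 0.0147% called among all probe sets. Hmox1 had a slope of -0.20 ± 0.0517 per hour (SE; limma adjusted p = 0.238) and Ahr one of -0.12 ± 0.0359 per hour (0.271). Txnrd1 1421529_a_at had a slope of 0.01 per hour and Cyp1b1 1416612_at one of -0.03, with 95% intervals from -0.05 to 0.08 and from -0.12 to 0.07. When the fit over all 13 arrays allowed a jump after 60 min, entered as a block, 0 of 21 slopes passed, with 3 at an unadjusted p under 0.05, beside 0% of all probe sets. Time and the jump are partly collinear, so a miss does not show that there was no slope.

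Regulators of the pathways were read on the probe set with the highest mean of each gene. Nfe2l2, the gene of NRF2, read between 1209 and 1540 units in the later hours, against 1508 to 1537 in the first hour, and did not pass (limma adjusted p = 0.196). Keap1 missed this contrast (0.221) and rose along the line (slope 0.07 per hour, adjusted p = 0.0145). Bach1, a repressor at the same elements that haem releases, rose 1.19-fold (limma adjusted p = 0.0417). Its windows overlapped, at 622.9 to 844.7 units against 586.8 to 625.1, and untreated cells read 639.8. Neither its line nor its spline passed (limma adjusted p = 0.139 and 0.477). The 3 small MAF genes, whose products pair with NRF2, all fell. Maff fell 1.57-fold, Mafg 1.297-fold and Mafk 1.15-fold (limma adjusted p = 0.000438, 0.000481 and 0.00639). Sqstm1, the gene of the autophagy receptor p62 and itself an NRF2 target, read between 1986 and 2605 units in the later hours, against 3401 to 4318 in the first hour, and fell 1.68-fold (limma adjusted p = 1.84e-05). Arnt did not pass (0.112), and the AHR repressor gene Ahrr, at percentile 7.1 of mean level, had a difference of -0.0012 (0.988).

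The other genes of the NRF2 pathway went both ways. Of 50 listed, 43 were found, and 12 rose and 5 fell in the later hours against the first hour. That is 39.5% called against 21.6% for all genes, each read on its probe set with the highest mean. These shares are not matched for level: 37 of the 43 were above the 40th percentile of mean level. By direction, 27.9% were higher against 10.9% of all genes, and 11.6% were lower against 10.7%. The share of falls was thus near that of all genes. The list was drawn up with earlier results of these data known, so the shares are a description and no test. The median difference of the 43 was 0.06, against -0.0012 over all genes. The 5 largest rises were in genes of metabolic enzymes. Idh1, a cytosolic source of NADPH, rose 1.63-fold, the epoxide hydrolase gene Ephx1 1.59-fold, the aldo-keto reductase gene Akr1b8 1.52-fold and the carbonyl reductase genes Cbr3 and Cbr1 1.43-fold and 1.22-fold (limma adjusted p = 3.04e-06, 5.03e-05, 3.91e-06, 1.86e-05 and 0.00207). Cbr3, for one, read between 566.5 and 657.2 units in the later hours, against 398.5 to 445.9 in the first hour and 420.8 in untreated cells, with no overlap. The untreated array was within the first-hour range for Cbr1 and Cbr3. It was above that range for Idh1 (383.3 units against 319.3 to 324.5), Akr1b8 (514.6 against 443.4 to 484.9) and Ephx1 (1619 against 1276 to 1613). In all 5 genes the later arrays lay above the untreated one. The 5 falls were Sqstm1, the 3 small MAF genes and Trim16, which fell 1.42-fold (limma adjusted p = 8.57e-05).

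**Figure D4:**
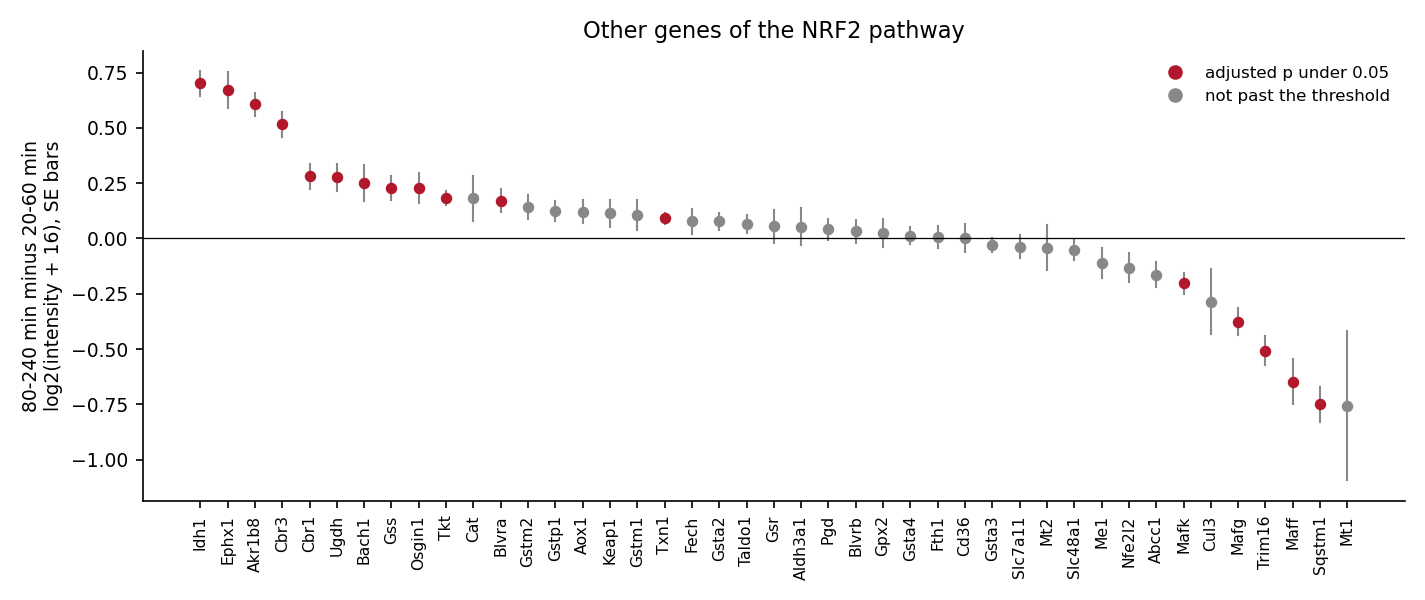
Difference of the later hours (80 to 240 min) from the first hour (20 to 60 min) for the 43 other NRF2 pathway genes found, on the log2(intensity + 16) scale with SE bars, ordered by size; red marks an adjusted p under 0.05. Idh1, Ephx1, Akr1b8 and Cbr3 stand highest, Sqstm1 and Maff are the lowest that passed, and Mt1 is lower still with a wide SE.

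Of 25 other genes of the AHR pathway 16 were found, and 3 fell and 0 rose in the later hours against the first hour. That is 18.8% called in either direction against 21.6% for all genes, and 18.8% lower against 10.7%. Along the line 6 of the 16 fell and 0 rose. That is 37.5% called in either direction against 23.8% for all genes, and 37.5% lower against 10.8%. This list, too, was drawn up with earlier results of these data known. The 3 that fell between windows were Ereg, an EGF receptor ligand gene, at 1.45-fold, Relb, an NF-kB subunit that can pair with AHR, at 1.26-fold, and the amino acid transporter gene Slc7a5 at 1.17-fold (limma adjusted p = 0.000686, 9.83e-05 and 0.00384).

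Cell markers were read in the same contrast. Of the 17 keratinocyte markers 4 rose and 5 fell (52.9% called, against 21.6% of all genes), with Trp63, the gene of p63, 1.21-fold higher and Krt16 1.22-fold lower (limma adjusted p = 0.000935 and 6.02e-05). Their summed intensity lay between 120900 and 125900 units in the later hours, against 125200 to 131000 in the first hour. Of 8 melanocyte markers found 1, Mitf, fell and 0 rose (12.5% called, below the 21.6% of all genes). Melanocyte markers summed to between 6341 and 7062 units in the later hours, against 6912 to 7633 in the first hour. Of 11 fibroblast markers S100a4 rose and Col3a1 fell (18.2% called), and the sum lay between 6414 and 7268 units, against 5190 to 6004. S100a4, which other cells also express, read between 3763 and 4442 of these units in the later hours, against 2668 to 3366 in the first hour, and Col1a1 did not pass (limma adjusted p = 0.21). Of the 10 immune cell markers 3 were above the 40th percentile of mean level, with Csf1r at percentile 68.2 and Cd68 at 62.6. The leukocyte marker Ptprc was at percentile 2.0. Of these 10, Cd68 fell and 0 rose (10% called), with sums of 1750 to 2012 units against 1851 to 2069. Of 6 endothelial markers none passed, and none of the 6 was above the 40th percentile. Their part in the results above was not tested. In such bulk samples, fewer cells of a type and less RNA per cell cannot be told apart.

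The likeness of time courses was described for the 3 genes with the largest range, Hmox1, Cyp1b1 and Ahr, by Pearson correlation over the 13 arrays with 7923 other genes. Hmox1 was most like Ppif (0.993), Crct1 (0.992) and Otud5 (0.991), and Cyp1b1 most like Nipal2 (0.974), Tmem51 (0.968) and Psapl1 (0.961). Ahr was most like Rai14 (0.972), Mnt (0.972) and Dusp16 (0.968). Of the other genes, 3.75%, 1.97% and 2.73% correlated above 0.9 with Hmox1, Cyp1b1 and Ahr, a description of how common these shapes are. Among the 10 genes Hmox1 and Cyp1b1 were the most alike pair (0.905) and Nqo1 and Tiparp the least (-0.603). All of these genes were read on the same 13 arrays, and the drop between the first and the later hours enters each value.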

How the data were processed

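Biotin-labelled cRNA of each sample was prepared for Affymetrix arrays, per the labels' protocols. Each deposited value is a probe set's intensity on 1 array, on a linear scale. For the probe summary and scaling behind it, no tool is named in the labels or files. Such scaling removes shifts shared by most transcripts. No source says that arrays came from separate cultures.

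Intensities were used as log2(intensity + 16). The platform table named 20393 probe sets to 1 gene, 691 to several and 1606 to none; those named to 1 gene were tested, with no filter on low values. Of the 21 probe sets studied 18 were above the 40th percentile of mean level. Of the 20393 probe sets, 20364 matched a RefSeq gene (GRCm38.p6) and took its symbol, whether or not it differed. limma 3.58.1 in R 4.3.3 (eBayes with an intensity trend, two-sided) fitted a line, a spline with 3 degrees of freedom and 3 windows (untreated, 20 to 60 min, 80 to 240 min), with Benjamini-Hochberg adjustment. The steps were tested on simulated data. The members, pathway lists, windows and tests were chosen with earlier results of these data known.

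Named beside the 10 genes were the pathway regulators, up to 5 rises and 5 falls per list past the threshold, cell markers, and the 3 most alike genes of the 3 widest-ranging members. Mt1 and Mt2 were named in addition after their values were seen. Alternatives were a filter on dim probe sets, pseudocounts of 1 and 64, quantile and median scaling, 1 probe set per gene, no intensity trend, other windows, and arrays left out. The number of arrays limits the precision.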

Additional observations from a re-analysis of the deposited data

How the results depend on the processing

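In every alternative that tested them, Hmox1, Ahr 1422631_at and Cyp1b1 1416612_at and 1416613_at kept their fall in the later hours against the first hour past the threshold; the filter on dim probe sets removed 1416613_at, so that alternative did not test it. Probe sets called in that contrast numbered 2189 to 4373 of all and 5 to 10 of the 21 as each array was left out. The numbers were 4099 and 9 with all arrays, and lowest without the 40 min array. With 1 probe set per gene, 5 of 10 genes passed. In the main fit, 21.6% of all genes passed on their probe set with the highest mean. Line calls numbered 3114 to 4809 of all (4571 with all arrays) and 5 to 11 of the 21 (9), the 5 without the untreated array, and 3041 with 1 probe set per gene. With the step as a block 0 of all and 0 of the 21 passed, and in 80 to 240 min alone 3 and 0. Spline calls numbered 1483 (without 20 min) to 3612 of all (2452) and 4 to 8 of the 21 (5), the 8 without 240 min. First hour against untreated called 1 probe set, 0 after the filter on dim ones and 2 after quantile scaling. No paired analysis was possible because each time had a single array and the labels carry no replicate numbers.

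Signs that turned, none past the threshold, were these. With the step as a block and in 80 to 240 min alone, slopes per hour were -0.020 and -0.017 for Gclc 1455959_s_at, -0.0067 and -0.0072 for Gclc 1424296_at, 0.018 and 0.014 for Txnrd1 1421529_a_at, 0.075 and 0.073 for 1424486_a_at, 0.049 and 0.054 for 1424487_x_at, -0.0023 and -0.0056 for Srxn1 1426875_s_at, 0.033 and 0.020 for 1425351_at, 0.0002 and 0.0020 for 1419942_at, and 0.017 and 0.031 for Cyp1b1 1432081_at; Cyp1b1 1416613_at was at 0.0046 in 80 to 240 min. Without the 200 and 220 min arrays Srxn1 1426875_s_at was at -0.0001 and 1451680_at at -0.012 per hour, and Nqo1 at -0.0051 in later against first hours (-0.024 with 80 to 140 min). In first hour against untreated, median centring gave 0.0062 for Txnrd1 1424487_x_at, 0.0001 for Srxn1 1451680_at, 0.014 for 1419942_at and 0.026 for Cyp1a1, and quantile scaling 0.023 for Srxn1 1419942_at and 0.018 for Cyp1a1. With single arrays left out, signs turned within these ranges: along the line -0.011 to 0.011 for Srxn1 1425351_at, -0.018 to 0.0041 for Cyp1b1 1432081_at; first hour against untreated -0.011 to 0.0077 for Gclc 1424296_at, -0.031 to 0.10 for Gclm 1418627_at, -0.11 to 0.048 for Txnrd1 1424486_a_at, -0.11 to 0.031 for Txnrd1 1424487_x_at, -0.096 to 0.011 for Srxn1 1451680_at, -0.069 to 0.021 for Srxn1 1419942_at, -0.035 to 0.020 for Cyp1a1 1422217_a_at; later against first hours -0.016 to 0.040 for Nqo1 1423627_at, -0.022 to 0.11 for Gclm 1418627_at, -0.066 to 0.023 for Srxn1 1419942_at, -0.073 to 0.024 for Cyp1b1 1432081_at. The cause was not tested.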

Other observations

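The 40 min array held the highest value of 10 of the 21 probe sets and of 5 of the 10 genes on their brightest probe set (Hmox1, Txnrd1, Cyp1a1, Cyp1b1 and Ahr), against 19.6% of all genes. The 200 min array held the highest value of 2 of the 10 genes, Gclc and Srxn1, against 23.4% of all genes. The metallothionein gene Mt1, a metal and oxidant response gene of the NRF2 list, read between 596.5 and 1557 units from 80 to 240 min, against 713.3 to 2924 units from 20 to 60 min and 1712 units in untreated cells, and its difference of -0.76 did not pass (limma adjusted p = 0.135). Its relative Mt2 read between 1560 and 2079 units, against 1554 to 2287 units (limma adjusted p = 0.835). The arrays holding the highest values were noticed in the data, and no test was made of them.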
